A study of Mus musculus with 3 samples.

Results

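Imprinted genes of distal mouse chromosome 7 were followed through the loss of Oct3/4: Igf2, Phlda2, Cdkn1c, Slc22a18, Kcnq1, Cd81, Tssc4 and Nap1l4. They are 8 of the 18193 genes that have a probe set of their own on the array. A probe set is a group of short probes for the same transcript. These 8 genes were chosen with earlier results of these data known. Every probe set that the array annotation gives to only 1 of them was used, which made 10 of 34945. The samples were mouse embryonic stem (ES) cells in which Pou5f1 is a conditional knockout; this gene encodes Oct3/4, the transcription factor that keeps these cells pluripotent. Total RNA of days 0, 1 and 2 was hybridised, with 1 array per day, so every group is a single sample and no test was possible. All groups are labelled as conditional Pou5f1 knockout. The strain, the number of clones and the way the knockout was induced are not given in the sources used here, and the samples used here hold no culture without the knockout, so the loss of Oct3/4 and the time in culture cannot be told apart.

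In imprinted genes the copy from the mother or from the father is mainly silent, and a control region that is methylated on only 1 of the parental chromosomes sets which. The stretch of distal chromosome 7 around Igf2 and Cdkn1c holds a pair of such domains. In the domain of Igf2 a control region near H19, methylated on the paternal chromosome, leaves the paternal Igf2 active. In the neighbouring domain the long RNA Kcnq1ot1, made from the paternal chromosome inside Kcnq1, silences Cdkn1c, Slc22a18, Phlda2 and Kcnq1 on that chromosome, and the genes further out (Cd81, Tssc4 and Nap1l4) are silenced mainly in the placenta. Igf2 is a growth factor of embryo and placenta, while Cdkn1c and Phlda2 restrain growth. The arrays measure total RNA and do not separate the alleles.

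The values are hybridisation signals in arbitrary intensity units. Differences are on the scale of log2(signal + 55.9), which understates those of dim genes; 55.9 is the 40th percentile of all signals and also marks the level under which a signal was treated as dim. The arrays had the same 2% trimmed mean of about 498 (497.5 at day 0, 497.5 at day 1 and 497.6 at day 2), and their median signals were 83.5, 92.5 and 87.6. Error could be judged only from genes with several probe sets. Over 5906 such genes the pooled SD was 0.30 in log2 for the first step (day 0 to day 1), 0.30 for the second step (day 1 to day 2) and 0.34 for both steps together. This SD covers neither differences from culture to culture nor those from array to array. The label of the cells was checked against 10 ES cell markers: all 10 were above 55.9 at day 0, and all 10 were at least 2-fold lower at day 2, as were 5.65% of all genes, with a median difference of -2.82. Pou5f1 itself went from a signal of 2400.3 over 40.8 to 15.5.

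At day 2 the set split into a group far above day 0 and a group close to it. Igf2, Phlda2, Cdkn1c and Slc22a18 were at least 2-fold higher, which is 4 of the 8 genes and of the 7 kept. Of all 12717 genes with a bright enough probe set, 5.25% passed that size. The 8 genes were chosen with earlier results known, so these shares are no test of the set. Cd81, Tssc4 and Nap1l4 stayed within 2-fold, and Kcnq1 was too dim to be kept. At day 1 against day 0 only Igf2 and Slc22a18 of the 8 were at least 2-fold higher (2.4% of all genes), and from day 1 to day 2 Igf2, Phlda2 and Cdkn1c were (2.09% of all genes). Not one of the 7 kept was at least 2-fold lower in any of these comparisons. Of all genes 5.65% were lower over both days, 2.59% in the first step and 2.65% in the second. A count of 0 of 7 is close to these shares. Slc22a18 passed the filter on dim probe sets only through day 1 and day 2, so it had to differ to be counted. In bulk RNA a change in the number of cells of a type and a change of RNA per cell cannot be told apart.

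**Figure D1:**
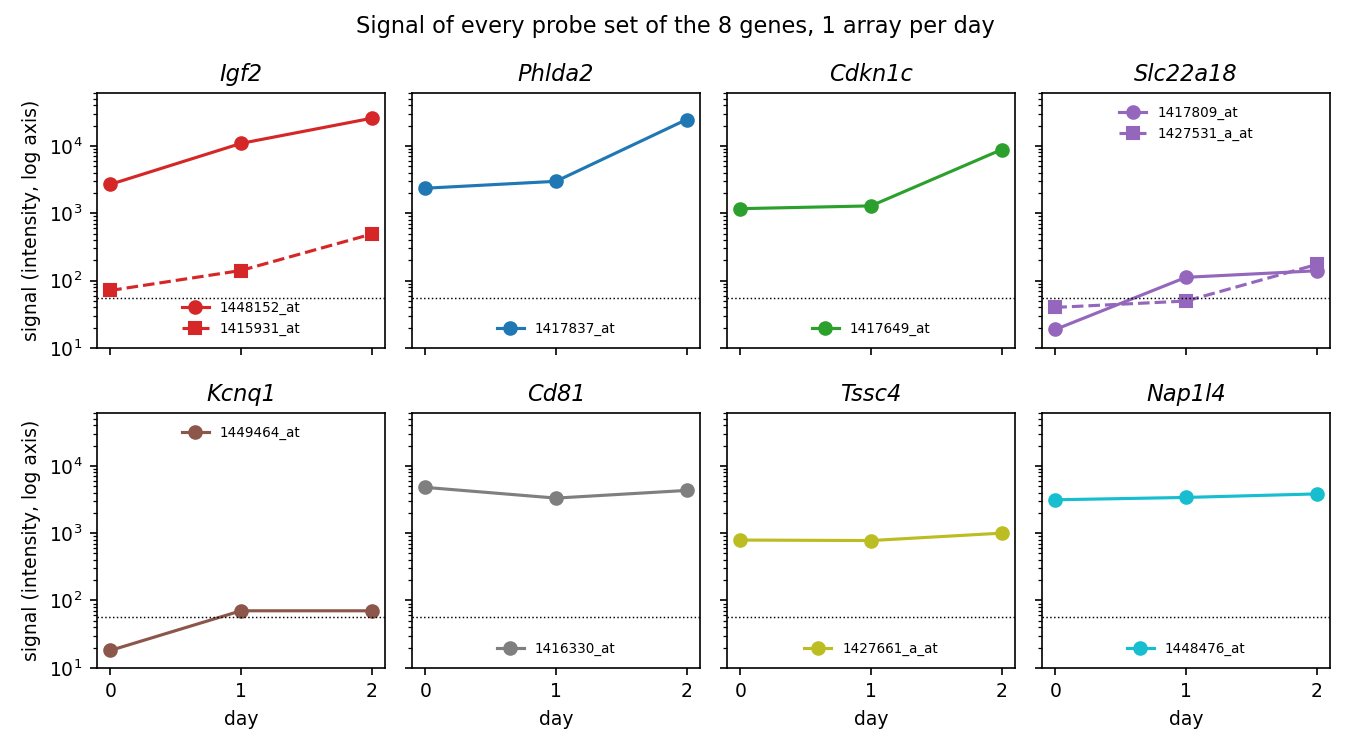
Deposited signal (intensity, log axis) of all 10 probe sets of the 8 genes against the day, 1 array per point; dashed lines are the dimmer probe set of a gene and the dotted line is the constant of 55.9. Igf2 is higher on each following day, Phlda2 and Cdkn1c are close to day 0 at day 1 and high at day 2, and Cd81, Tssc4 and Nap1l4 stay nearly level.

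Igf2, the paternally expressed growth factor, was the early member on the brighter of its probe sets. Its brighter probe set (1448152_at) read 2682 at day 0, then 10889.8 and 25738.3. Each day was above the one before, and the difference was 2.00 for the first step and 1.24 for the second, together 3.24 or 9.42-fold. This placed Igf2 4th from the top of 12717 genes in the first step and 6th over both. The other probe set (1415931_at) was much dimmer, with 71.3, 141.2 and 490.6. It gave the same order of days but a smaller first step, 0.63, and a larger second one, 1.47, for 2.10 in all. So 61.8% of the 2-day difference was present by day 1 on the brighter probe set and 30.0% on the dimmer one. The probe sets disagree on the size of the first step by more than the pooled SD of 0.30, and which of them is closer to the transcript level was not tested.

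Phlda2, a small protein with a pleckstrin homology domain that limits growth of the placenta, was a late member. Its only probe set read 2353.8 at day 0, 2979.3 at day 1 and 24652.8 at day 2. Day 0 and day 1 lay close together and day 2 stood far above both. The first step was 0.33, little more than the probe set SD of 0.30, and the second was 3.03, the 4th highest of all genes for that step. Over both days Phlda2 was higher by 3.36, or 10.3-fold, and only 9.91% of that difference was present at day 1. The day 2 differences of Phlda2 and Igf2 lie closer together than the probe set SD, so their order is unresolved.

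Cdkn1c, the gene of the cyclin-dependent kinase inhibitor p57, followed the same course. It read 1169.7 at day 0, 1286.3 a day later and 8813.8 at the end. The first step of 0.13 was within the probe set SD, and the second was 2.72, 9th from the top. At day 2 it was higher by 2.86 or 7.24-fold, and 4.59% of the difference had appeared by day 1. On its brighter probe set Igf2 therefore differs from Cdkn1c in timing. At day 1 it was among the 10 highest genes, while Cdkn1c ranked 5088th and Phlda2 2802nd. The dimmer Igf2 probe set had a first step of 0.63 and a second of 1.47, so there the second step was the larger, as for Cdkn1c. With 1 array per day this order of events describes these arrays and was not tested.

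**Figure D2:**
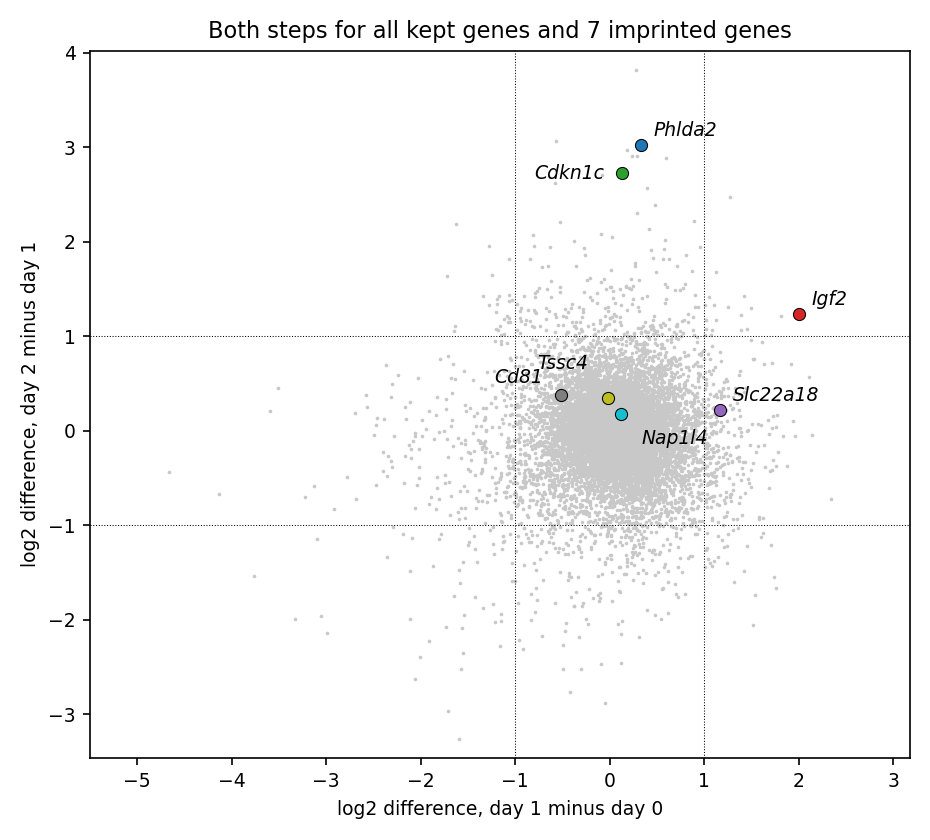
Each point is 1 of the 12717 kept genes, with the log2 difference of the first step (day 1 minus day 0) on the horizontal axis and of the second step (day 2 minus day 1) on the vertical axis; dotted lines mark 2-fold and large points are the 7 kept imprinted genes. Phlda2 and Cdkn1c lie high on the vertical axis near 0 on the horizontal, Igf2 is past 2-fold on both, Slc22a18 on the first step alone, and Cd81, Tssc4 and Nap1l4 sit in the central cloud.

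Slc22a18, a membrane protein of the organic cation transporter family, lies between Cdkn1c and Phlda2 on the chromosome but was dim, and its probe sets disagreed on the timing. The representative one (1417809_at) read 18.8 at day 0, 111.9 at day 1 and 139.9 at day 2, which puts day 0 below the constant and the later days above it. The other (1427531_a_at) read 40, 49.7 and 173.5, with only day 2 above the constant. At day 2 both were higher, by 1.39 and 1.26. The first gave 1.17 in the first step and 0.22 in the second. The second gave 0.14 and then 1.12, a late course as for its neighbours. With a constant of 111.8 the day 2 difference was 0.95 and the day 1 difference 0.78. As the mean over both probe sets the day 1 difference was 0.65, so a call of Slc22a18 at day 1 rests on 1 probe set.

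Kcnq1, a voltage-gated potassium channel subunit whose gene houses the silencing RNA of its domain, stayed near background. Its probe set read 18.1 at day 0, 70.3 at day 1 and 70.3 at day 2, a mean of 52.9 that is under the constant of 55.9. The difference of 0.77 at both later days runs from a signal below the constant to ones barely above it, and it did not enter the counts of genes. Its partner on the opposite strand, Kcnq1ot1, has 6 probe sets, of which 3 were kept. The brightest read 507.8, 512.7 and 716.7, the next 345.6, 362.7 and 434.1, and the third 43.5, 51.1 and 81.6. All 3 were slightly higher at day 2, by 0.45, 0.29 and 0.47, and none passed 2-fold. The third was below the constant at day 0 and day 1 and passed the filter only through day 2. The probe sets not kept were dim, at 0.70, -0.25 and 0.01 at day 2. On the brightest and the next probe set the Kcnq1ot1 signal at day 2 was thus no lower than at day 0. Whether it bears on Cdkn1c or Phlda2 was not tested.

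The outer genes of the region differed little. Cd81, a tetraspanin of the cell surface, read 4782.3 at day 0, 3314.8 at day 1 and 4308.7 at day 2. It was the only kept member of the 8 that was lower at day 1 by more than the probe set SD, at -0.52, and it was at -0.15 at day 2. Tssc4, a protein linked to the splicing machinery, read 789.6, 776.1 and 1000.1. Its differences were -0.02 at day 1 and 0.32 at day 2, the latter within the probe set SD of 0.34. Nap1l4, a histone chaperone of the nucleosome assembly protein family, read 3128.3, 3389.2 and 3825.6, with differences of 0.11 and 0.29. Nap1l4 is the next gene after Phlda2 on this list, so the 10.3-fold difference of Phlda2 had a neighbour at 1.22-fold.

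Promoter sequence was at hand for 5 of the 8 genes (Igf2, Phlda2, Slc22a18, Cd81 and Tssc4), from RefSeq on build GRCm38.p6. The sequences of Phlda2 and Slc22a18 are shown because these near neighbours were both higher at day 2 while their promoters differ, those before the second and the last Igf2 start site because they differ within the same gene, and that of Cd81 for a gene that stayed within 2-fold. Each is the 250 bases before a start site, 5′ to 3′ on the gene's strand. Capitals mark matches on either strand to ATGCAAA (part of the octamer bound by Oct factors), ACAATG (a Sox-type motif), TATAAA (the TATA box), CCAAT (the CCAAT box), GGGCGG (a GC box) or CACGTG (an E-box).
Phlda2, chr7:143502525-143502774, minus strand: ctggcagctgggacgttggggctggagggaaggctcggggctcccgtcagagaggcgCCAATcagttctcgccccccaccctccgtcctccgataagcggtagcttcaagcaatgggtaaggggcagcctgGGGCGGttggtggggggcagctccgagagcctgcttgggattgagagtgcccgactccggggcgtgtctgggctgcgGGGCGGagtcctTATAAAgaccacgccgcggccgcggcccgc
Slc22a18, chr7:143473539-143473788, plus strand: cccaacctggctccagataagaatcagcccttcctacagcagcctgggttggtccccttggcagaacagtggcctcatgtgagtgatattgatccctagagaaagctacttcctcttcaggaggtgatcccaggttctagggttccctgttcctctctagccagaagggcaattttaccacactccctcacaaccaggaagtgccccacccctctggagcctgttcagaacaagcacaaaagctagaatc
Igf2, second start site, chr7:142661272-142661521, minus strand: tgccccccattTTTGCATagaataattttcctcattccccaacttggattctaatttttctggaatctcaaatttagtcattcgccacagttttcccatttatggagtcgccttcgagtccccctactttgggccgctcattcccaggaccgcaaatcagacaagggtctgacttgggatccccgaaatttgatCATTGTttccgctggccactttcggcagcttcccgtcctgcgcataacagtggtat
Igf2, last start site, chr7:142657497-142657746, minus strand: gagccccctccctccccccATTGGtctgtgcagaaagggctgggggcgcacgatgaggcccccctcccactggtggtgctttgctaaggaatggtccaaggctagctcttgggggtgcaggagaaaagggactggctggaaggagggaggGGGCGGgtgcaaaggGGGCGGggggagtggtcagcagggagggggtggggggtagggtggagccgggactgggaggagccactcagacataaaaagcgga
Cd81, chr7:143052500-143052749, plus strand: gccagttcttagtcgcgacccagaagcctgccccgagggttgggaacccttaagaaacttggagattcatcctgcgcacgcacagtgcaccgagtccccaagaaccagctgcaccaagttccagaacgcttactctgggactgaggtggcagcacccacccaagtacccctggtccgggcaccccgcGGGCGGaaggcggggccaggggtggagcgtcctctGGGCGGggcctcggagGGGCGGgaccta

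The Phlda2 promoter had the make-up of a CpG-rich promoter with a TATA box. It held 21 CpG dinucleotides (a ratio of 0.72 to the number its C and G content would give), a TATAAA at 30 to 25 bases before the start, a CCAAT and 2 GGGCGG. The Slc22a18 promoter held 0 CpG in 250 bases and none of the motifs searched. Before the 4 Igf2 start sites the CpG numbers were 1, 10, 22 and 6, in the order of transcription. The window of the second held the only ATGCAAA among these genes, on the opposite strand at 239 to 233 bases before the start, and an ACAATG on the opposite strand. That of the third held 1 GGGCGG, and that of the last 2 GGGCGG and a CCAAT. Cd81 had 16 CpG and 3 GGGCGG, and Tssc4 had 17 CpG and a CCAAT. Over all 32851 windows of this length, 4.12% held ATGCAAA, 10.7% ACAATG, 12.4% TATAAA, 33.8% CCAAT, 32.7% GGGCGG and 6.02% CACGTG, and the median CpG ratio was 0.37. CACGTG was in none of the windows of these genes. A match is a description of the letters, and which Igf2 start site was in use cannot be told from the array.

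Read along the chromosome, the differences varied from gene to gene. Among 21 further genes of the region or its edges, 19 have a probe set of their own and 15 were kept. Ascl2, a transcription factor needed for trophoblast of the placenta, was the only 1 of the 15 at least 2-fold higher at day 2, with 5.25% over all genes. With a constant of 13.98 the count was 3 of 15, since Lsp1, a protein of the actin skeleton of white blood cells, went from 0.96 to 1.21 and Ins2 from 0.77 to 1.27. The 3 probe sets of Ascl2 read 229, 393.5 and 4080.9, then 243.6, 378.6 and 3403.5, then 115.5, 233.2 and 1784.3. They gave differences of 3.86, 3.53 and 3.42 at day 2, of which 0.66, 0.54 and 0.75 were present at day 1, so Ascl2 had the late course of Phlda2 and Cdkn1c. Ins2, an insulin gene next to Igf2, was dim, with 27.1 at day 0, 134.9 at day 1 and 85.4 at day 2. Its first step was 1.20, and 0.83 with the constant of 111.8. Ins2 was below the constant at day 0 and passed the filter only through the later days, so it had to differ to be counted. Its only probe set is marked _x, a kind that can match several transcripts. Th, tyrosine hydroxylase, between Ins2 and Ascl2, read 66.3, 152.3 and 72.4 and ended at 0.07. Tspan32, between Ascl2 and Cd81, was at -0.07 at day 2 on its brighter probe set and at -0.64 on the other, which was not kept. Cars, the cysteinyl-tRNA synthetase gene after Nap1l4, was at -0.54 on its brighter probe set. Its dimmer kept probe set was at -1.19, past 2-fold, with a day 2 signal of 24.5 below the constant. Syt8 was at least 2-fold lower from day 1 to day 2 (-1.34, from 165.3 to 31.3), though at -0.95 with the constant of 111.8. The median of the 15 at day 2 was 0.35, beside 0.05 for all genes.

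**Figure D3:**
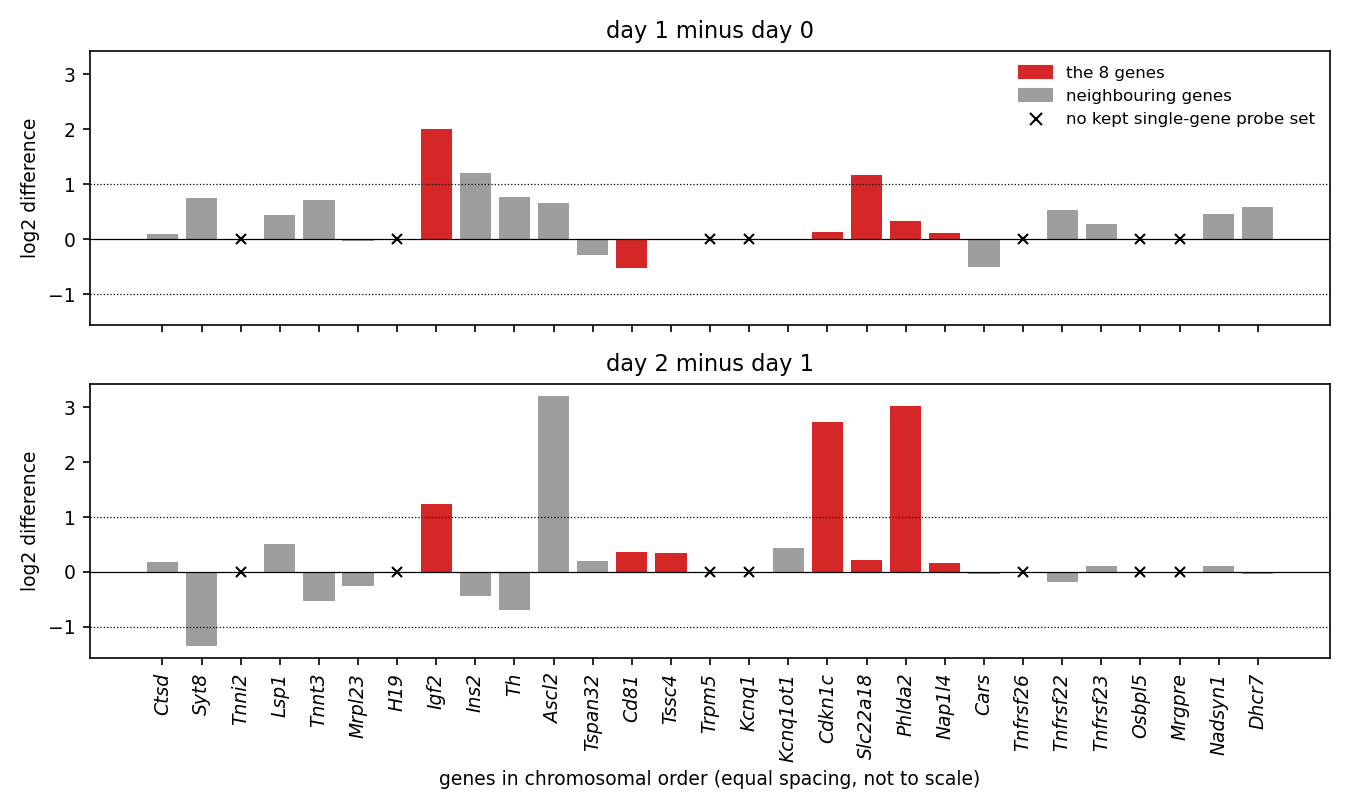
Log2 difference of each gene in chromosomal order (equal spacing) for the first step (upper panel) and the second (lower panel); red bars are the imprinted genes described here, grey bars other genes of the region, crosses genes without a kept probe set of their own, and dotted lines mark 2-fold. The tall bars of the second step are Ascl2, Cdkn1c and Phlda2, with genes near 0 between and beside them.

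The genes of the receptors, binding proteins and signal carriers around Igf2 mostly stayed within 2-fold. Of 24 genes of the IGF pathway 17 were kept, and 2 of them were at least 2-fold higher and 0 lower at day 2, beside 5.25% higher and 5.65% lower over all genes. The count of 2 became 1 with the constant of 111.8, the stricter filter on dim probe sets (signals averaging over 151.1), the mean over probe sets, and without probe sets marked _x, _s or _a, which can match several transcripts. Their median was 0.47, beside 0.05 for all genes. Akt1, a kinase downstream of the receptors, read 969.3, 1478.4 and 2577.9 and was higher by 1.36. Igf1, the other growth factor of the family, was higher by 1.12 from a day 0 signal of 19.8 to 108.9 at day 2, and by only 0.53 when probe sets marked _x, _s or _a were left out. It was below the constant at day 0 and passed the filter only through the later days. Igf1r, the receptor through which Igf2 acts, was at -0.14 on its brightest probe set. Its other kept probe sets were at 0.63, -0.03 and -0.28, so its direction depends on the probe set. Igf2r, the receptor that clears Igf2 and is itself imprinted, read 877, 1234.1 and 1402.5, a difference of 0.64. Among the binding proteins Igfbp2 read 13263.3, 22363 and 14888.7, and its first step of 0.75 was largely gone at day 2, at 0.17. The RNA-binding proteins of the Igf2 messenger, Igf2bp1 and Igf2bp3, were at 0.01 and 0.28 on their brightest probe sets. The other probe sets of Igf2bp1 were at 0.24, 0.39 and -0.35, so its direction depends on the probe set too. The day 2 level of Igf2 was thus not matched by a like difference in its kept receptor genes.

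Factors linked to imprints, among them enzymes that oxidise methylcytosine, were lower at day 2 or within 2-fold. Of 22 listed 20 were kept, and 6 were at least 2-fold lower and 0 higher at day 2, where 5.65% of all genes were lower. The median was -0.50, beside 0.05. Zfp57, a zinc finger protein that holds methylation at imprinting control regions, read 850.9, 367.5 and 213.8 and was lower by -1.75. Dppa3, which shields imprints from demethylation after fertilisation, read 465, 230.8 and 95.8 and was lower by -1.78. The others were Dnmt3l (-1.81) and Dnmt3a (-1.56), which serve new methylation, Tet1 (-1.90), which oxidises methylcytosine, and Eed (-1.49), a subunit of Polycomb repressive complex 2. Dnmt3a was at -0.80 as the mean over its kept probe sets, which disagreed. Dnmt1, the maintenance methyltransferase, was at 0.21, Trim28, the partner of Zfp57, at -0.33, and Ctcf, the insulator protein of the Igf2 control region, at -0.35. The methylation of the region was not measured, and whether these differences bear on Igf2, Cdkn1c or Phlda2 was not tested.

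Imprinted genes elsewhere in the genome moved in both directions. Of 36 listed 25 were kept, 5 at least 2-fold higher and 3 lower at day 2, beside 5.25% and 5.65% over all genes. The median was 0.42, beside 0.05. Peg10 (2.43), Sgce (2.00), Peg3 (1.75), Sfmbt2 (1.72) and Slc38a4 (1.10, and as low as 0.96 under other settings) were the higher ones and Ddc (-1.57), Zdbf2 (-1.52) and Ppp1r9a (-1.44) the lower ones. None of these 25 reached the differences of Phlda2 or Cdkn1c at day 2, or that of Igf2 on its brighter probe set. The dimmer Igf2 probe set, at 2.10, was below Peg10.

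Markers of other cell types were read beside these values. Of 12 trophectoderm markers 11 were kept and 10 were at least 2-fold higher at day 2, beside 5.25% of all genes. The summed signal over the probe sets of the 12 was 19558, 30895 and 113181 for days 0, 1 and 2. Most of the day 2 sum came from Krt18 (24611.1) and the probe sets of Krt8 (18359.4, 16808.6 and 15734). Cdx2 was already higher at day 1 (2.14), as was Igf2 on its brighter probe set. Krt8 and Krt18, with 0.48 and 0.29 at day 1 and 2.86 and 2.60 at day 2, had the late course of Phlda2. The kept marker that was not higher at day 2 was Eomes, a T-box factor of trophoblast stem cells, which read 381.4, 844.1 and 295.4. It was at 1.04 at day 1, lower by -1.36 in the second step, and ended at -0.32. Its other probe set had the same course, with -1.44 in the second step. Ascl2 is in this list too. Of 10 primitive endoderm markers 6 were kept: 2 were at least 2-fold higher and 1 lower, beside 5.25% and 5.65% over all genes. These were Gata6 (1.46) and Dab2 (1.33, and 0.59 without the probe sets marked _x, _s or _a) on the higher side and Lama1 (-1.66) on the lower, and the summed signals were 1736, 2412 and 2428. Fibroblast markers, the sign of feeder cells, were dim: 7 of 10 were not kept, Col1a1 and Col3a1 among them, and the summed signal was 889.3, 843.5 and 641.3. The fall of that sum came from Thy1, a surface glycoprotein and the brightest of the 10, which read 399.8, 274.6 and 89.3 and was lower by -1.65. Without it, a choice made after the values were seen, the sum was 489.5, 568.9 and 552.0, and the other kept markers, Col1a2 and Pdgfrb, were at 0.26 and 0.62 at day 2. The part of trophectoderm-like, endoderm-like or feeder cells in the differences of Igf2, Phlda2 and Cdkn1c was not tested.

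The genes whose courses lay closest to each imprinted gene were found by the distance between their pairs of log2 differences (day 1 and day 2, each against day 0) over the 3 arrays. For Igf2 these were Cited1 (distance 0.29; signals 110.4, 527.1 and 1293.2), Tinagl1 (0.57) and Gadd45g (0.62). For Phlda2 they were Nxf7 (0.18, from a day 0 signal of 25.4 below the constant), Mbnl3 (0.24; signals 258.8, 314.1 and 2710.3) and Ldoc1 (0.25). Cdkn1c had Dkk1 (0.28; signals 65.8, 103.7 and 892.8), and then Mbnl3 (0.30) and Ldoc1 (0.30) again. Slc22a18 had Zdhhc2 (0.01), Rflnb (0.07) and Timp3 (0.08). Each course was that of the brightest kept probe set of a gene. The other probe set of Slc22a18, at 0.14 for day 1 and 1.26 for day 2, had a different course. So had that of Igf2, at 0.63 and 2.10. With 3 arrays such a distance is a description of 2 differences only.

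**Figure D4:**
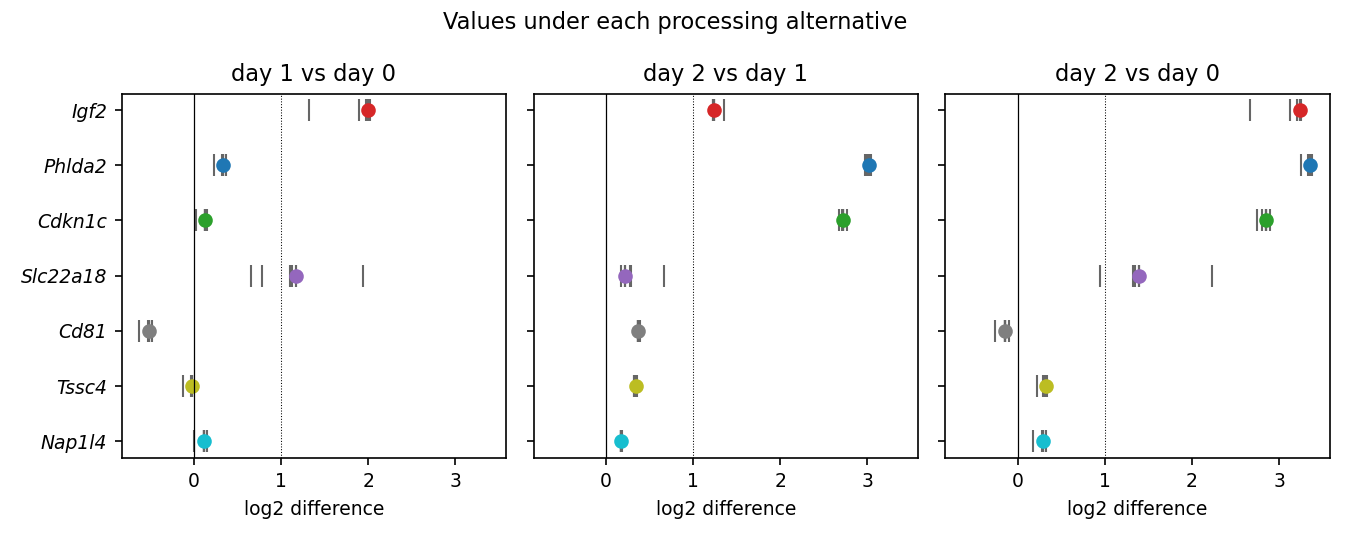
Log2 differences of the 7 kept imprinted genes in each comparison, as reported (circles) and under each processing alternative (ticks); the dotted line marks 2-fold. The ticks of Phlda2, Cdkn1c, Cd81, Tssc4 and Nap1l4 lie close to their circles. At day 1 against day 0 those of Slc22a18 spread from 0.65 to 1.94 and the values of Igf2 from 1.32 to 2.02.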

How the data were processed

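Total RNA of 3 samples, 1 per day, was labelled with biotin and hybridised to Affymetrix arrays, per the labels. The deposited values are linear signal intensities per probe set, made by the authors with MAS5, per the submitters' processing notes; the version and settings used are not stated there. Of 45101 rows 64 hold a day 2 value only and were left out. Whether the day 2 array was processed apart is unknown. The signals were taken as deposited, since the arrays share a trimmed mean. Probe sets averaging at least 55.9 over the arrays were kept (26925 of 45037), and the brightest kept probe set stood for its gene. Of the probe sets 34945 name 1 gene in the platform annotation, 932 name several and were not used for a gene, and 9160 are unnamed; 34741 matched GRCm38.p6 genes by Entrez identifier. H19 has no probe set of its own and is not analysed here. The gene order came from that assembly; the array files name no build. Calls are by size (2-fold), since 1 array per day gives no replicate error and the number of arrays limits the precision. Members, lists and motifs were chosen with earlier results of these data known. All probe sets of the 8 genes are named, and from each list the genes past 2-fold at day 2 or else those with the largest differences; others in the text were named for their role. Of the kept genes, the 3 nearest to each of the 8 were named for those past 2-fold. Python 3.11.15, numpy 2.4.6 and pandas 2.3.3 were used, and the scripts were tested on simulated data.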

Additional observations from a re-analysis of the deposited data

How the results depend on the processing

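The differences of Igf2, Phlda2 and Cdkn1c at day 2 kept their direction and their side of 2-fold under all 8 alternatives, with ranges of 2.67 to 3.26, 3.25 to 3.38 and 2.75 to 2.90. The lowest value of Igf2 was the mean over its probe sets. For the first step of Igf2 the range was 1.32 to 2.02, past 2-fold under all 8. Slc22a18 at day 2 ranged from 0.95 to 2.23 over 7 alternatives, since it is dim. It was dropped by a filter set to the 60th percentile of signals, 151.1. The number of the 8 genes at least 2-fold higher at day 1 was 2, and 1 with the constant of 111.8, with only probe sets averaging over 151.1, and with the mean over probe sets. Of all genes, 305 were higher at day 1 against day 0, and 146 with the constant of 111.8, 599 with a constant of 13.98 and 202 with the stricter filter of 151.1. For day 2 against day 1 the 266 higher and 337 lower genes became 158 and 184 with the constant of 111.8, and 454 and 615 with the constant of 13.98. With equal medians of ribosomal protein genes the split at day 1 was 220 higher and 417 lower, against 305 and 330. No paired analysis was possible because each day has a single array.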

Other observations

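Among relatives of the 8 proteins, 14 of 26 were kept, and 3 were at least 2-fold higher and 0 lower at day 2, beside 5.25% and 5.65% over all genes. Their median was 0.38, beside 0.05 for all genes. Slc22a5, a carnitine transporter of the family of Slc22a18, had signals of 344.4, 551.8 and 1124.7 and was higher by 1.56, and its other probe set gave 1.25. Cdkn1a, a kinase inhibitor of the same family as Cdkn1c, had 727.2, 1471.5 and 1798.1. It was higher by 0.96 at day 1 and by 1.24 at day 2, an earlier course than that of Cdkn1c, while Cdkn1b, the third of the family, was at 0.11. The relatives of Phlda2, Phlda1 and Phlda3, were at 0.42 and 0.49. Cd82, a tetraspanin like Cd81, was higher by 1.70 on its brighter probe set and lower by -0.90 on the other, so its direction depends on the probe set. Nap1l1, a paralogue of Nap1l4, was at 0.03 on its brightest probe set and between -0.13 and -0.75 on the other 6.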
